A study of Mus musculus with 9 samples.

Results

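RNA from RFP-only and GFP-only cells of the developing mouse knee was compared gene by gene. All embryos were at E14.5 and carried both reporter alleles, Creb5 3XHA-P2A-tdTomato/+ and Sox9 iresEGFP/+, so that each cell kept 1 unmodified copy of each gene and no group was free of reporters. The first allele adds an HA tag and the red protein tdTomato to Creb5, and the second makes the green protein EGFP from the Sox9 transcript. Knee joints were dissected under fluorescence, dissociated with collagenase and sorted. RFP-only cells had tdTomato without EGFP, GFP-only cells had EGFP without tdTomato, and cells with both formed a separate, double-positive population whose 3 libraries served here only to estimate the spread. Each population had 3 libraries, 1 from each of the litters numbered 1, 2 and 5, which were isolated on separate dates. Genes with a mean of at least 10 normalized counts over the 6 RFP-only and GFP-only libraries were compared, which were 17722 of the 54532 genes in the deposited table.

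Sox9 is the transcription factor that sets the chondrocyte fate and switches on the genes of cartilage matrix. Creb5 is a bZIP transcription factor of the CREB and ATF family, known for its role in joint and articular cartilage, and the title of the study concerns its control of its own expression and of the joint interzone program. Around the cartilage anlagen of a limb joint lie perichondrium, tendon and ligament precursors, loose connective tissue, muscle, vessels and nerves. The comparison therefore sets knee cells with only the red reporter, from any of these tissues, against cells with only the green one.

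The 6 libraries held between 25199258 and 45660541 reads, recovered from the deposited values. The GFP-only library of litter 5 deviated most of the 6 from the other libraries of its population. Across 10779 genes, the shortest 25% were higher in it than in the mean of the other 2 GFP-only libraries by a median of 0.79 on the log2 scale. Computed the same way, that median was -0.44 and -0.33 in GFP-only litters 1 and 2, and -0.06, 0.24 and -0.16 in the RFP-only libraries of litters 1, 2 and 5. The Spearman correlation of these deviations with exon length was -0.44 in GFP-only litter 5, and 0.44, 0.30, 0.09, -0.41 and 0.35 in the other 5 in the same order. In size the correlation did not set GFP-only litter 5 apart from GFP-only litter 1 or RFP-only litter 2. GFP-only litters 1 and 2 are each compared with a mean that includes litter 5, so their deviations partly mirror those of litter 5. RFP-only litter 1 had more genes with a read (24964) than the other 5 libraries (21130 to 22143). In bulk libraries such as these, fewer cells of a type and less RNA per cell cannot be told apart.

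Differences are given as log2 fold changes of RFP-only against GFP-only on the log2(normalized count + 1) scale, with their standard error after the ± sign (3 libraries against 3). Adjusted p-values are those of limma's two-sided test over all 17722 genes, a gene is called where that value is under 0.05, and levels are normalized counts in litters 1, 2 and 5, in that order. Normalized counts are not divided by gene length, so levels are compared between groups and not between genes.

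The genes that set the sort were checked first, and they are no finding. Creb5 (ENSMUSG00000053007, mm10 chr6:53287270-53700376, plus strand) stood at 196, 138 and 274 in GFP-only and 3343, 2006 and 3531 in RFP-only libraries (log2 change 3.87 ± 0.30, adjusted p = 1.50e-05). Sox9 (ENSMUSG00000000567, chr11:112782224-112787760, plus strand) had 37991, 22771 and 25967 in GFP-only and 1873, 1090.5 and 1891 in RFP-only libraries (log2 change -4.17 ± 0.30, adjusted p = 1.04e-05). The groups did not overlap for either gene, so the libraries match their labels. Neither RNA was absent from the opposite population. The chondrocyte genes taken as markers (Col2a1, Col9a1, Col11a2, Acan, Matn1 and Hapln1) were all higher in GFP-only cells. The connective tissue markers Osr1, Dpt, Pdgfra and Twist2 were all higher in RFP-only cells.

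Of the tested genes 3616 were called, or 20.4%, of which 2100 (11.8%) were higher and 1516 (8.55%) lower in RFP-only cells. The median change was 2.39 among the genes called higher and -1.67 among those called lower, against 0.04 over all tested genes. The median exon length was 4799 bases in genes called higher, 3258 in genes called lower and 3894 over all tested genes. With each library's trend with exon length removed, 2067 genes were called higher and 1834 lower. A change of at least 2-fold was seen in 1923 genes called higher and 1215 called lower, at least 8-fold in 789 and 396, and at least 32-fold in 163 and 149. All but 11 of the called genes moved in 1 direction in all 3 litters. This is no separate support, since the calls rest on the same values. Groups without overlap were found for 39.6% of tested genes. Most genes named below were picked among called genes, so remarks that their groups were separate describe them and are no test. The number of calls fell to 2276 without RFP-only litter 1 and to 2194 without RFP-only litter 5, and no call that was shared between these fits changed its direction.

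**Figure D1:**
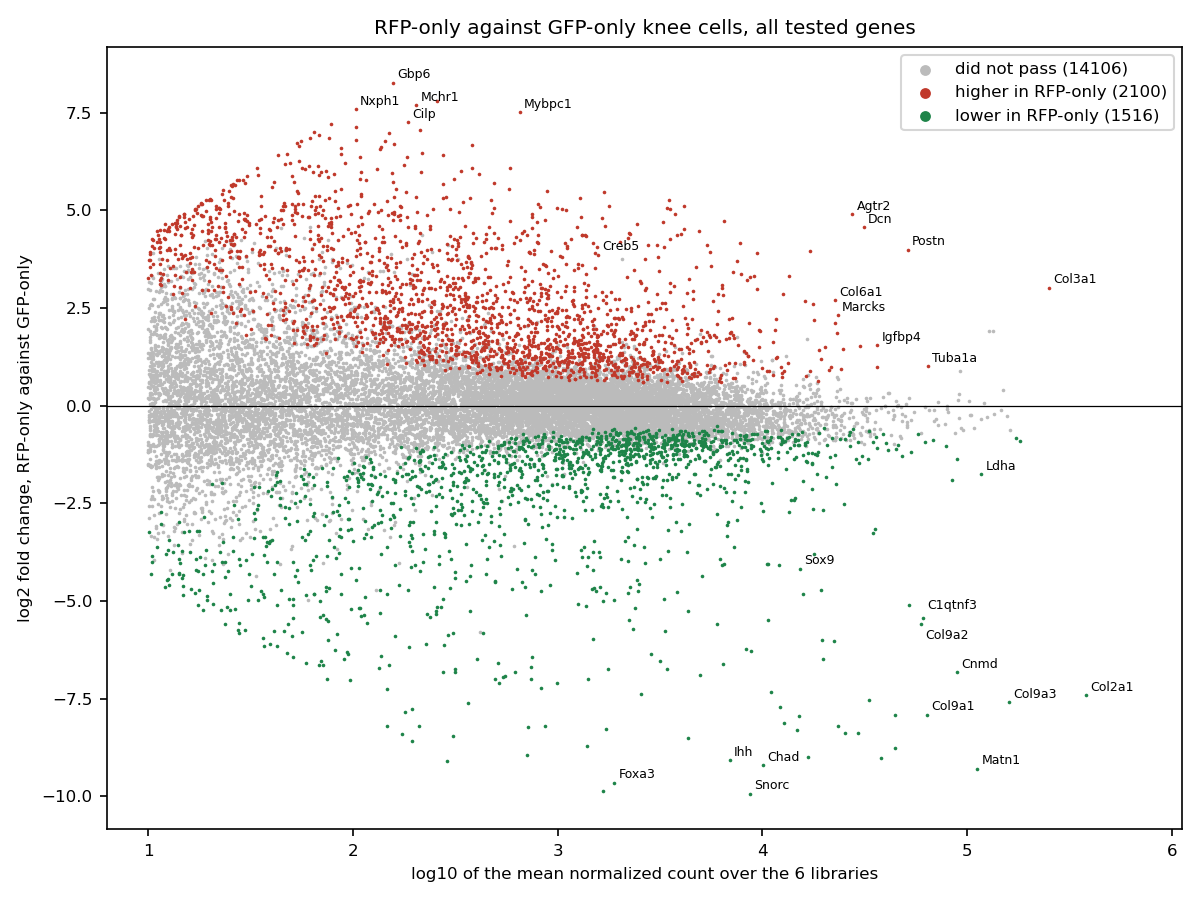
Each point is 1 of the 17722 tested genes, with the log10 of its mean normalized count over the 6 libraries on the horizontal axis and its log2 fold change of RFP-only against GFP-only on the vertical axis. The 2100 genes called higher in RFP-only cells are red, the 1516 called lower green and the others grey. Cartilage genes such as Col2a1 and Matn1 lie far below the line at high mean counts.

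Genes called lower in RFP-only cells took 24.9% ± 1.44 (SD, n = 3) of the reads of GFP-only libraries and 8.84% ± 0.398 (SD, n = 3) of those of RFP-only libraries. Genes called higher took 3.45% ± 1.13 (SD, n = 3) and 13.6% ± 0.315 (SD, n = 3). These shares describe the sets and are no test, since the sets were chosen on the same values. The 8 cartilage collagens alone took 3.75% ± 1.26 (SD, n = 3) of GFP-only reads and 0.0408% ± 0.0124 (SD, n = 3) of RFP-only reads, and 22 other cartilage matrix genes took 2.23% ± 0.507 and 0.0537% ± 0.00953 (SD, n = 3 each).

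The promoters of 6 genes are shown because their RNA carried parts of the contrast: Creb5, called higher, and Ldha, called lower, both have a promoter with a full cyclic AMP response element, Matn1 and Col11a2 are cartilage genes called lower, and Col3a1 and Mybpc1 are connective tissue and muscle genes called higher. Creb5 and Ldha each have 2 promoters in the table, and the one with the element is shown. For both genes its start lies within the gene's span in GENCODE (Creb5 chr6:53287270-53700376 and Ldha chr7:46841475-46855627). All printed Ldha bases and the last printed Creb5 bases lie inside that span. Each sequence is the 250 bases before a transcription start in RefSeq (GRCm38.p6), read 5′ to 3′ on the gene's strand, and capitals mark matches to the motifs named after the sequences.
Creb5: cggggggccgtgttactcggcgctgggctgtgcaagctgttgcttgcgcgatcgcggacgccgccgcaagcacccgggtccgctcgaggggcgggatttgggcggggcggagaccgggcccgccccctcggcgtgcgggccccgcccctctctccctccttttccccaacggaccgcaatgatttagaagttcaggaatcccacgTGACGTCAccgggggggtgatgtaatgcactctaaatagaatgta
Ldha: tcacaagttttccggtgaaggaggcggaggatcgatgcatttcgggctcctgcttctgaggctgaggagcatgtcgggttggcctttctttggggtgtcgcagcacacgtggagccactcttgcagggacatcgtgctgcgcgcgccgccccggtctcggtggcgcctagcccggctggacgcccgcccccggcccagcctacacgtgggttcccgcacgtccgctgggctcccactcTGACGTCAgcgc
Matn1: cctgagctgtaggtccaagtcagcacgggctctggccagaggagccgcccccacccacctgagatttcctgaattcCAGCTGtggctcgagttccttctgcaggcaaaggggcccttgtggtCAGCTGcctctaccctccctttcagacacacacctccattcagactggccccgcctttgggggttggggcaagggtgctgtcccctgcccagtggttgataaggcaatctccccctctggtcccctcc
Col11a2: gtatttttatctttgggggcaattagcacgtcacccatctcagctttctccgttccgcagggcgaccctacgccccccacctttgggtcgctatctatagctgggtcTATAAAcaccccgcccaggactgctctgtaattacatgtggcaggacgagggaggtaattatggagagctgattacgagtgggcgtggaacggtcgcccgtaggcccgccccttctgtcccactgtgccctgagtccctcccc
Col3a1: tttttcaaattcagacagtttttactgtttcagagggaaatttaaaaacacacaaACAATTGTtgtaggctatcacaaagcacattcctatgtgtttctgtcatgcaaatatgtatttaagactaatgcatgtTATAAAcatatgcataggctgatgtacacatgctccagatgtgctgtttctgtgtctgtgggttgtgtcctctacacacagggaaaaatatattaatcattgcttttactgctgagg
Mybpc1: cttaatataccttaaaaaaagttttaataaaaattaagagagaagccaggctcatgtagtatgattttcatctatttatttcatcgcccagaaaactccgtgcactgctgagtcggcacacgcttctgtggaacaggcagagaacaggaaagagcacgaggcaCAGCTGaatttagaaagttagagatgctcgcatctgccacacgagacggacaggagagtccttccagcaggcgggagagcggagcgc
In Creb5 (chr6:53287053-53287302, plus strand) the response element TGACGTCA begins 45 bases before the start, and in Ldha (chr7:46845554-46845803, plus strand) it begins 12 bases before it. Matn1 (chr4:130944135-130944384, plus strand) has CAGCTG, an E-box, beginning 174 and 128 bases before the start, and Mybpc1 (chr10:88605153-88605402, minus strand) has it 87 bases before. Col11a2 (chr17:34038888-34039137, plus strand) and Col3a1 (chr1:45311288-45311537, plus strand) have TATAAA, the letters of the TATA box motif, 143 and 117 bases before the start. Whether either acts as a TATA box was not tested. Col3a1 also has ACAAT, a core that SOX factors bind, 195 bases before the start on the plus strand and 192 bases before it on the minus strand, where the matches overlap. Both strands were searched. Over all 32851 promoters of the table, TGACGTCA was in 1.55%, ACAAT in 27.7%, CAGCTG in 13% and TATAAA in 12.4%. Among the promoters of all tested genes the shares were 2.39%, 18.4%, 12.6% and 6.93%. Among promoters of genes called lower by at least 8-fold these shares were 0.865%, 21.6%, 15.3% and 11.5%, and among those called higher by at least 8-fold 1.48%, 23.2%, 19.4% and 11.8%. A match is a description of letters and not a bound site. The same windows held 10 or more CpG dinucleotides in 67.0% of promoters of all tested genes, in 35.2% of those called lower by at least 8-fold and in 44.3% of those called higher by at least 8-fold.

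Genes with the largest changes were read next. Among called genes, a mean of 100 or more normalized counts where the gene was high and 1 direction in all litters were required. Gbp6, of the interferon-inducible GTPases, led the genes called higher with 0, 0 and 0 in GFP-only and 294, 248 and 403 in RFP-only libraries (at least 277-fold higher in RFP-only cells, adjusted p = 1.06e-05). No read of Gbp6 was counted in any GFP-only library, and the bound sets 3 reads over that group. Mchr1, the receptor of melanin-concentrating hormone, was at 0, 6.12 and 0 in GFP-only and 452, 303 and 465 in RFP-only libraries (log2 change 7.70 ± 0.79, adjusted p = 9.49e-05). Nxph1, a secreted neurexin ligand, stood at 0, 0 and 0 in GFP-only and 106, 258 and 256 in RFP-only libraries (at least 182-fold higher). Each of these genes was high in all 3 RFP-only libraries and at or near 0 in all 3 GFP-only libraries. Mybpc1, myosin-binding protein C of slow muscle, had 0, 36.7 and 8.14 in GFP-only and 1347, 1246 and 1281 in RFP-only libraries (log2 change 7.52 ± 0.98, adjusted p = 0.00041). Cilp, a matrix protein named after the intermediate layer of cartilage, was at 0, 12.2 and 0 in GFP-only and 367, 301 and 437 in RFP-only libraries (log2 change 7.27 ± 0.88, adjusted p = 0.00027), the only member of the cartilage matrix list called higher. The same group held Krt80, a keratin, Htr3a, a serotonin-gated channel subunit, and Gad2, the enzyme that makes GABA. Krt80 was at least 138-fold higher and Gad2 at least 121-fold higher, and both had no GFP-only read. Cbln4, a secreted protein of the cerebellin family, had 1 GFP-only read and a ratio of 457 (95% counting interval 82.1 to 18058).

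Lower genes were led by cartilage genes. Snorc, a membrane proteoglycan of chondrocytes, stood at 7191, 9498 and 35630.0 in GFP-only and 6.09, 55.5 and 5.6 in RFP-only libraries (log2 change -9.93 ± 0.85, adjusted p = 2.63e-05). Foxa3, a forkhead transcription factor, had 3562, 3730.3 and 4057 in GFP-only and 8.38, 10.2 and 0 in RFP-only libraries (log2 change -9.65 ± 0.75, adjusted p = 1.50e-05). Chad, chondroadherin of the cartilage matrix, was at 11705, 16422 and 32533 in GFP-only and 12.9, 112 and 18.2 in RFP-only libraries (log2 change -9.21 ± 0.72, adjusted p = 1.51e-05). In all 3 the lowest GFP-only library was over 100 times as high as the highest RFP-only library. Panx3, a channel protein of maturing chondrocytes and osteoblasts, stood at 28849, 38721 and 32215 in GFP-only and 47.2, 147 and 36.4 in RFP-only libraries (log2 change -9.00 ± 0.62, adjusted p = 8.02e-06). Epyc, the small proteoglycan epiphycan, had 47264, 67970.0 and 149855 in GFP-only and 87.6, 364 and 186 in RFP-only libraries (log2 change -8.75 ± 0.64, adjusted p = 1.10e-05). Some leading genes are not known as cartilage genes. Rlbp1, which binds retinaldehyde in the eye, was at 1391, 2229 and 4671 in GFP-only and 6.86, 0 and 23.8 in RFP-only libraries (log2 change -8.72 ± 0.96, adjusted p = 0.000144). Plb1, a phospholipase, stood at 421, 309 and 438 in GFP-only and 0, 0 and 0 in RFP-only libraries (at least 354-fold lower in RFP-only cells). Ncmap, a protein of myelinating Schwann cells, had 4090.1, 6585 and 15409 in GFP-only and 6.86, 57.8 and 18.2 in RFP-only libraries (log2 change -8.49 ± 0.67, adjusted p = 1.57e-05). The antisense gene Dhx58os was also among the leading genes, but no source used here gives the strand setting, and its reads cannot be told apart from those of overlapping genes.

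**Figure D2:**
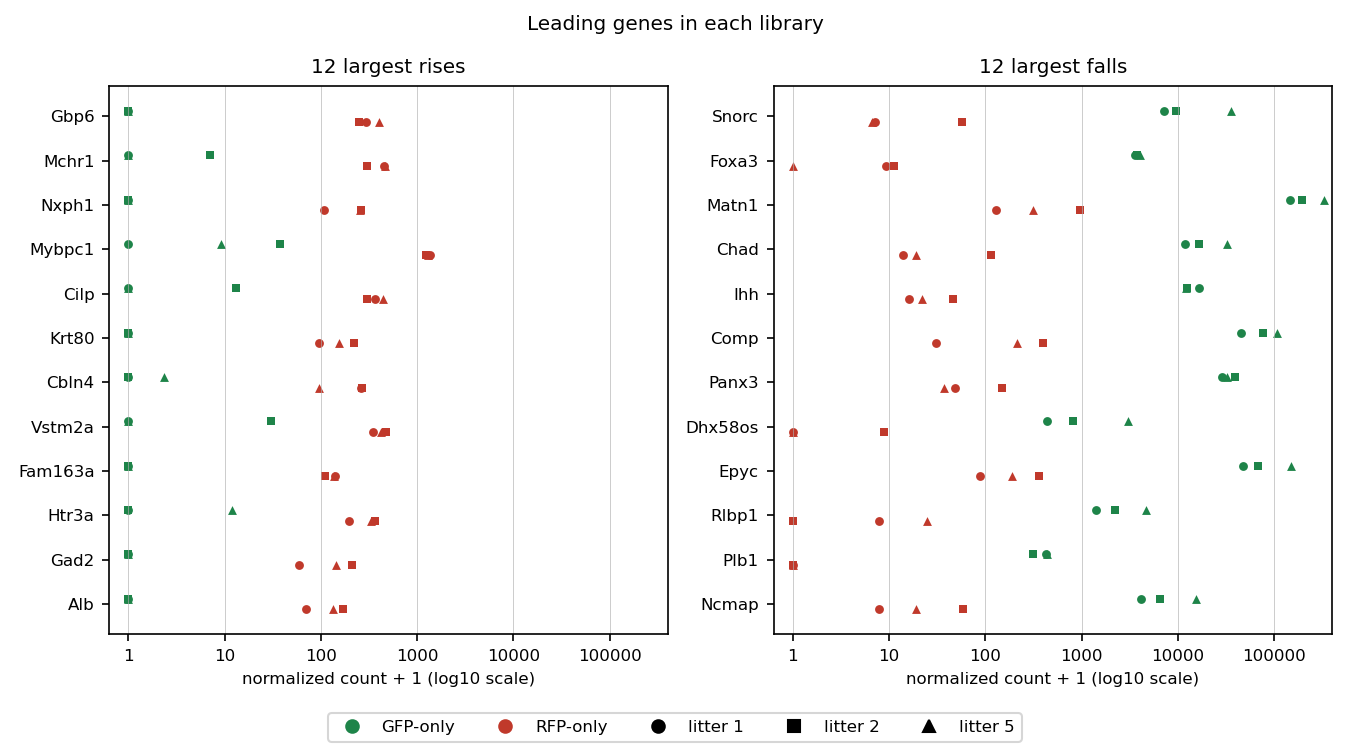
Normalized counts plus 1, on a log10 axis, of the 12 genes with the largest rise (left) and the 12 with the largest fall (right) among called genes whose higher group averaged 100 or more, with 1 point per library, coloured by population and shaped by litter. No gene shown has overlapping groups, which follows from the choice of genes and is no test. Points at 1 are libraries without a read.

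By absolute difference of the means the largest rises were in Col3a1, Postn, Dcn, Agtr2, Tuba1a, Igfbp4, Col6a1 and Marcks. Agtr2, the type 2 angiotensin receptor, was at 1157, 3258 and 1468 in GFP-only and 48834, 51287 and 59335 in RFP-only libraries (log2 change 4.90 ± 0.42, adjusted p = 2.53e-05). Postn, periostin of perichondrium and other collagen-rich tissue, stood at 3167, 16793 and 3644 in GFP-only and 73809, 88905 and 120996 in RFP-only libraries (log2 change 4.0 ± 0.59, adjusted p = 0.00086). Dcn, the small proteoglycan decorin, had 896, 3380.2 and 4773 in GFP-only and 43784, 75820.0 and 59001 in RFP-only libraries (log2 change 4.57 ± 0.74, adjusted p = 0.00147). All 3 GFP-only libraries lay far below the RFP-only ones for these genes, with the lowest GFP-only values in litter 1. Marcks, a membrane-bound substrate of protein kinase C, was at 8297, 10879 and 5135 in GFP-only and 38781, 39993 and 37004 in RFP-only libraries (log2 change 2.32 ± 0.29, adjusted p = 0.000336). The largest falls were in Col2a1, Col9a3, Matn1, Cnmd, Ldha, Col9a1, C1qtnf3 and Col9a2. Cnmd, chondromodulin, an anti-angiogenic protein of cartilage, stood at 87327, 130982 and 314287 in GFP-only and 1114, 1490.3 and 1492 in RFP-only libraries (log2 change -6.82 ± 0.43, adjusted p = 5.49e-06). C1qtnf3, a secreted protein of the C1q and TNF family, had 53764, 120472 and 185204 in GFP-only and 1325, 3077 and 3727 in RFP-only libraries (log2 change -5.42 ± 0.68, adjusted p = 0.000341).

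Collagens divided by family. All 8 cartilage collagens were lower in RFP-only cells, with a median of -7.46. Of 32 other collagens 18 were higher, 1 was lower and 13 did not pass, with a median of 1.91, against 0.04 over all genes. Col9a3, a chain of the collagen that coats cartilage fibrils, was at 269138, 372829 and 317587 in GFP-only and 749, 2492 and 2436 in RFP-only libraries (log2 change -7.58 ± 0.46, adjusted p = 5.30e-06). Col11a2, a chain of the collagen inside those fibrils, stood at 66365, 86198 and 44999 in GFP-only and 133, 794 and 389 in RFP-only libraries (log2 change -7.52 ± 0.63, adjusted p = 2.18e-05). Col10a1, the collagen of hypertrophic cartilage, had 10049, 72495 and 58216 in GFP-only and 19.8, 356 and 228 in RFP-only libraries (log2 change -8.19 ± 1.47, adjusted p = 0.00282), and was lowest in litter 1 in both populations. Col27a1 had the smallest change of the 8, at 10321, 11799 and 14425 in GFP-only and 999, 1444 and 1156 in RFP-only libraries (log2 change -3.35 ± 0.25, adjusted p = 1.30e-05).

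Col3a1, the fibrillar collagen of soft connective tissue, was at 62611, 137136 and 17276 in GFP-only and 384399, 465490.0 and 449127 in RFP-only libraries (log2 change 3.03 ± 0.58, adjusted p = 0.00426). It took 1.25% ± 0.0854 (SD, n = 3) of RFP-only reads and 0.182% ± 0.156 (SD, n = 3) of GFP-only reads. Col6a1, a chain of the beaded filaments around cells, stood at 4917, 11965 and 3385 in GFP-only and 27991, 42351 and 45907 in RFP-only libraries (log2 change 2.70 ± 0.44, adjusted p = 0.00153). Col4a1, a chain of the basement membrane, had 1972, 2387 and 701 in GFP-only and 6944, 11412 and 10962 in RFP-only libraries (log2 change 2.68 ± 0.43, adjusted p = 0.00146). In each of these 3 genes the GFP-only library of litter 5 was the lowest of the 6. Col6a6, another chain of collagen VI, was at 52.9, 22 and 52.9 in GFP-only and 833, 1709 and 2146 in RFP-only libraries (log2 change 5.16 ± 0.82, adjusted p = 0.00137). Col20a1 stood at 12.4, 6.12 and 5.43 in GFP-only and 173, 137 and 253 in RFP-only libraries (log2 change 4.43 ± 0.65, adjusted p = 0.000846). The exception in direction was Col15a1, of basement membrane zones, at 579, 867 and 1260.4 in GFP-only and 50.3, 116 and 79.8 in RFP-only libraries (log2 change -3.45 ± 0.38, adjusted p = 0.000148). Col1a1 and Col1a2, the chains of the main collagen of bone, tendon and skin, did not pass: Col1a1 had 61004, 225055 and 6541 in GFP-only and 138118, 201636 and 169162 in RFP-only libraries, where GFP-only litter 2 exceeded every RFP-only library (log2 change 1.90 ± 0.94, adjusted p = 0.174).

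**Figure D3:**
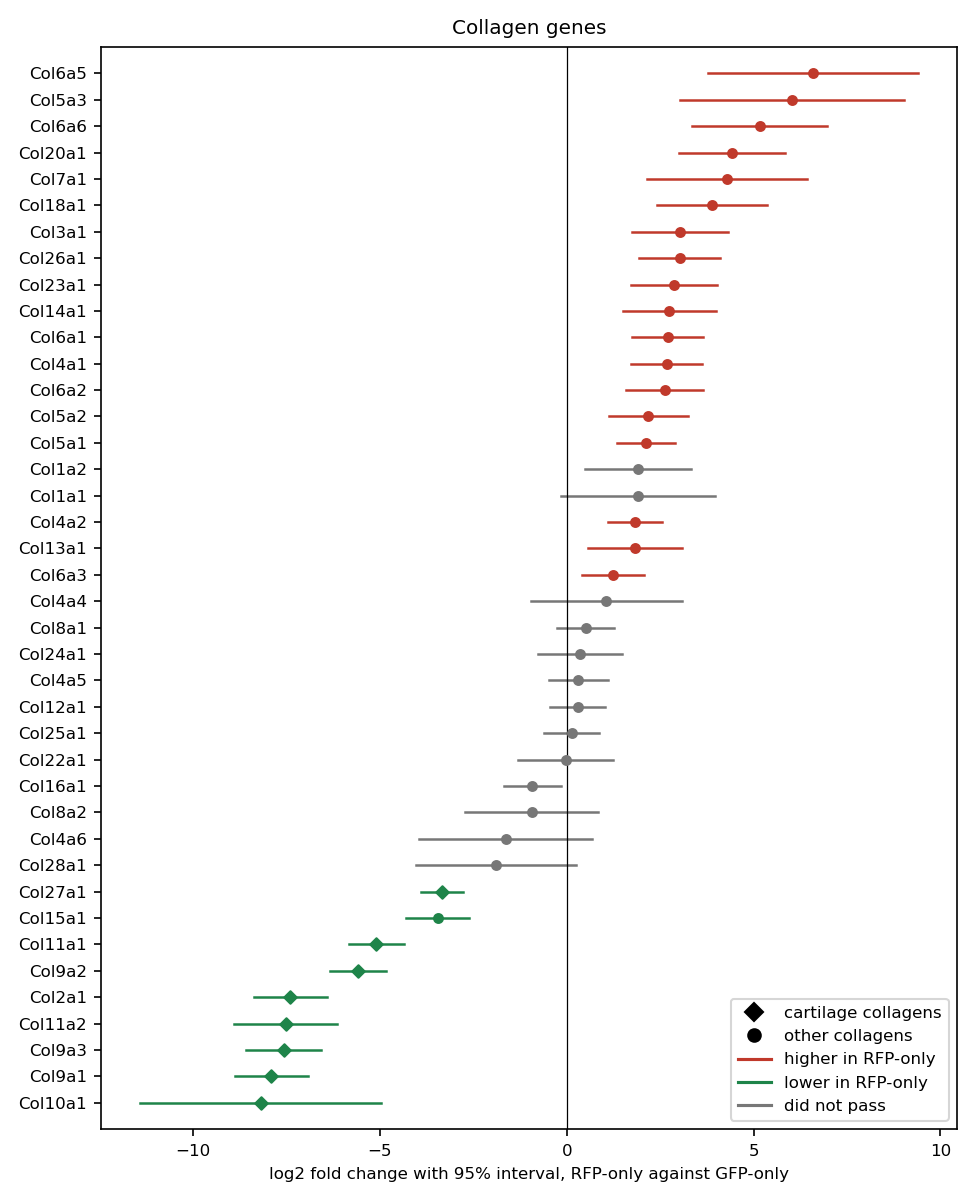
Log2 fold changes of RFP-only against GFP-only with 95% intervals for the 40 tested collagen genes, with diamonds for the 8 cartilage collagens and circles for the other 32. All diamonds lie below 0, 18 circles are called above it, Col15a1 is called below it, and the grey ones did not pass.

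Among the other cartilage matrix genes 18 of 22 were lower, 1 was higher and 3 did not pass, with a median of -7.10. Acan, the proteoglycan aggrecan that holds water in cartilage, was at 39917, 58060.0 and 54128 in GFP-only and 37.3, 292 and 302 in RFP-only libraries (log2 change -8.38 ± 0.69, adjusted p = 1.95e-05). Hapln1, the link protein that ties aggrecan to hyaluronan, stood at 79746, 91790.0 and 94808 in GFP-only and 249.8, 592 and 329 in RFP-only libraries (log2 change -7.92 ± 0.46, adjusted p = 5.30e-06). Comp, a pentameric matrix protein of cartilage and tendon, had 45381, 76060.0 and 107102 in GFP-only and 29.7, 399.8 and 213 in RFP-only libraries (log2 change -9.02 ± 0.88, adjusted p = 6.99e-05). The populations were separated by more than 100-fold in every litter for each of these 3. Hspg2, perlecan, changed less, at 2894, 3799 and 3366 in GFP-only and 740.4, 1144 and 1295 in RFP-only libraries (log2 change -1.69 ± 0.33, adjusted p = 0.00491). Matn2, Cilp2 and Otor did not pass, at 0.60, 0.86 and -1.05 on the log2 scale. Genes of prehypertrophic chondrocytes and osteoblasts were lower in 16 of 20 cases and higher in none, with 4 that did not pass (Mmp13, Dmp1, Vegfa and Phex). Smpd3, a sphingomyelinase of mineralizing tissue, was at 33487, 27772 and 11288 in GFP-only and 63.2, 238 and 74.2 in RFP-only libraries (log2 change -7.71 ± 0.80, adjusted p = 0.000103), and Spp1, osteopontin, stood at 3709, 32112 and 97922 in GFP-only and 266, 385 and 417 in RFP-only libraries (log2 change -6.02 ± 1.01, adjusted p = 0.00187).

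Transcription factors of chondrocytes followed the matrix. Of 21 tested, 17 were lower, 1 was higher and 3 did not pass, with a median of -3.93. Sox9 itself is 1 of the 17 by the sort and also enters the median. Sox5 and Sox6 are partners of Sox9 in cartilage. Sox5 had 5579.7, 3552 and 4754 in GFP-only and 126, 102 and 154 in RFP-only libraries (log2 change -5.17 ± 0.31, adjusted p = 5.30e-06), and Sox6 was at 4783, 2936 and 5815 in GFP-only and 38.1, 41.9 and 344 in RFP-only libraries (log2 change -5.70 ± 0.68, adjusted p = 0.00024). Both were lower in all 3 RFP-only libraries than in any GFP-only library. Foxa2, a forkhead factor of hypertrophic chondrocytes, stood at 281, 249.8 and 353 in GFP-only and 0, 0 and 0 in RFP-only libraries (at least 268-fold lower). Sp7, an osteoblast factor, had 7591, 6691 and 2616 in GFP-only and 22.9, 65.7 and 155 in RFP-only libraries (log2 change -6.34 ± 0.67, adjusted p = 0.000117). Runx3, a Runt factor of maturing chondrocytes, was at 3724, 2648 and 2050.1 in GFP-only and 83.0, 197 and 190.4 in RFP-only libraries (log2 change -4.21 ± 0.43, adjusted p = 8.50e-05). The member called higher was Pax1, a paired-box factor, at 58.7, 82.0 and 0 in GFP-only and 214, 326 and 409 in RFP-only libraries (log2 change 4.17 ± 1.28, adjusted p = 0.0405), and its call was lost without any 1 of RFP-only litter 1, RFP-only litter 2, RFP-only litter 5, double-positive litter 1, double-positive litter 2 or double-positive litter 5 (highest adjusted p 0.12). Runx1, Msx2 and Pax9 did not pass.

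Among enzymes that build and modify the matrix, lower calls outnumbered higher ones and the medians were nearer to 0. Of 28 genes of glycosaminoglycan synthesis and sulfation 11 were lower, 2 higher and 15 did not pass, with a median of -0.48. Without GFP-only litter 5 the median was -0.78 and 14 were lower. Papss2, which makes the sulfate donor, stood at 31065, 34271 and 26154 in GFP-only and 920.2, 1159.6 and 1151 in RFP-only libraries (log2 change -4.82 ± 0.30, adjusted p = 5.30e-06). Slc26a2, the sulfate transporter of chondrocytes, had 13883, 15062 and 7702 in GFP-only and 944, 921 and 406 in RFP-only libraries (log2 change -4.05 ± 0.46, adjusted p = 0.000179). Chst11, a chondroitin sulfotransferase, was at 4990.3, 6823 and 7351 in GFP-only and 133, 216 and 287 in RFP-only libraries (log2 change -4.96 ± 0.38, adjusted p = 1.31e-05). These 3 genes of the sulfation route were at least 10 times lower in RFP-only cells in every litter. The 2 genes called higher act on heparan sulfate: Ndst1 stood at 984, 486 and 296 in GFP-only and 1743, 1684 and 2822 in RFP-only libraries (log2 change 1.96 ± 0.41, adjusted p = 0.00683), and Hs6st1 had 1169, 1012 and 389 in GFP-only and 2454, 1979.5 and 2502 in RFP-only libraries (log2 change 1.57 ± 0.36, adjusted p = 0.0102).

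Of 31 genes of collagen folding and export 16 were lower, 4 higher and 11 did not pass, with a median of -0.86. Prolyl and lysyl hydroxylases were among the lower genes: P4ha2 was at 19768, 24573 and 27883 in GFP-only and 3634, 5087 and 4865 in RFP-only libraries (log2 change -2.41 ± 0.25, adjusted p = 9.98e-05), and Plod2 stood at 15326, 16867 and 18007 in GFP-only and 2460.4, 2618 and 4164 in RFP-only libraries (log2 change -2.48 ± 0.29, adjusted p = 0.000206). Lysyl oxidases, which crosslink collagen and elastin, moved in both directions. Loxl3 had 12661, 15166 and 12093 in GFP-only and 2012, 1469 and 1802 in RFP-only libraries (log2 change -2.92 ± 0.29, adjusted p = 7.65e-05) and Loxl4 was at 1940.1, 5110.1 and 2279 in GFP-only and 76.9, 140.4 and 129 in RFP-only libraries (log2 change -4.65 ± 0.66, adjusted p = 0.000666). Lox itself stood at 3744, 6916 and 936 in GFP-only and 19823, 19132 and 24978 in RFP-only libraries (log2 change 2.87 ± 0.58, adjusted p = 0.00528). The collagen propeptidases also divided, with Adamts3 at 1708, 1672 and 1119 in GFP-only and 332, 207 and 298 in RFP-only libraries (log2 change -2.42 ± 0.40, adjusted p = 0.0017) and Adamts2 at 364, 873 and 138 in GFP-only and 3989, 5807 and 4845 in RFP-only libraries (log2 change 3.77 ± 0.61, adjusted p = 0.00157). The other 2 called higher were Loxl1 and Bmp1, and the count of 4 fell to 2 without RFP-only litter 2 or RFP-only litter 5.

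Of 37 genes of glycolysis and the hypoxia response, 21 were lower, 3 higher and 13 did not pass, with a median of -1.04. The 37 are gene identifiers that match 36 listed names. Ldha, the lactate dehydrogenase whose promoter is printed above, had 142702, 161403 and 239893 in GFP-only and 42432, 61740.0 and 56813 in RFP-only libraries (log2 change -1.74 ± 0.26, adjusted p = 0.00104). Aldoc, an aldolase, was at 3179, 3860.1 and 5727 in GFP-only and 152, 219.7 and 98.0 in RFP-only libraries (log2 change -4.79 ± 0.41, adjusted p = 2.35e-05), the largest change of the list. Slc16a3, a lactate exporter, stood at 13342, 12535 and 9999 in GFP-only and 1329, 1695 and 1309 in RFP-only libraries (log2 change -3.05 ± 0.24, adjusted p = 1.66e-05). Bnip3, a mitophagy receptor induced in hypoxia, had 15817, 21531 and 33729 in GFP-only and 3158, 3419 and 3711 in RFP-only libraries (log2 change -2.72 ± 0.27, adjusted p = 7.75e-05). The oxygen-sensing factors themselves did not pass: Hif1a was at 0.05 and Epas1 at 0.79 on the log2 scale. The 3 genes called higher were Slc2a3, Ndrg1 and Mxi1, and their count was 1 without GFP-only litter 1 or RFP-only litter 1 and 0 without RFP-only litter 5. GFP-only litter 5 had the highest GFP-only value of Ldha, Aldoc and Bnip3. Without that library the list still had 20 lower genes of 37.

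Many genes of connective tissue were called in the other direction. Of 35 genes of loose connective tissue and perichondrium 26 were higher, none was lower and 9 did not pass, with a median of 2.25. Some genes are counted in several lists, such as Osr1 and Osr2, which are also called higher in the joint interzone list below. Gas1, a membrane protein that arrests growth and binds hedgehog ligands, was at 2477, 2447 and 1446 in GFP-only and 34122, 31867 and 30674 in RFP-only libraries (log2 change 3.96 ± 0.26, adjusted p = 6.47e-06). Cd34, of fibroblast and vessel progenitors, stood at 1261, 1372 and 654 in GFP-only and 6242, 8963 and 8940.3 in RFP-only libraries (log2 change 2.93 ± 0.52, adjusted p = 0.00276). Twist1, a bHLH factor of mesenchyme, had 1009, 1377 and 1498 in GFP-only and 3929.8, 4568 and 3455 in RFP-only libraries (log2 change 1.63 ± 0.24, adjusted p = 0.000963). For each of them all RFP-only libraries exceeded all GFP-only libraries. Lum, Prrx1 and Vim, which are broad mesenchyme genes, did not pass, at -0.01, 0.30 and 0.79 on the log2 scale. Of 27 tendon and ligament genes 12 were higher, none was lower and 15 did not pass, with a median of 1.57 (1.03 without GFP-only litter 5). Scx, the bHLH factor of tendon, was at 1006, 1106 and 919.9 in GFP-only and 2726, 2615 and 2477 in RFP-only libraries (log2 change 1.37 ± 0.25, adjusted p = 0.00308). Tnmd, tenomodulin of tendon cells, stood at 402, 732 and 558 in GFP-only and 1764, 3139 and 3862 in RFP-only libraries (log2 change 2.34 ± 0.46, adjusted p = 0.0047). Fmod and Bgn, small proteoglycans of tendon and cartilage, did not pass, at -0.90 and 0.44.

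Elastic fiber and microfibril genes were higher in 13 of 23 cases and lower in 2, with a median of 1.38. Emilin2, a glycoprotein of elastic fibers, had 162, 264 and 145 in GFP-only and 3979, 4491 and 5666 in RFP-only libraries (log2 change 4.66 ± 0.47, adjusted p = 7.75e-05). Fbln1, fibulin 1, was at 4945, 5761 and 3842 in GFP-only and 16483, 20515 and 18028 in RFP-only libraries (log2 change 1.93 ± 0.22, adjusted p = 0.000158). Ltbp4, which anchors latent TGF-beta to microfibrils, stood at 742, 1221 and 414 in GFP-only and 3151, 5112 and 5864 in RFP-only libraries (log2 change 2.66 ± 0.38, adjusted p = 0.000694). In RFP-only cells each of these was higher in every litter. The opposite direction was held by Mgp, the matrix Gla protein that inhibits mineralization, at 8793, 14675 and 37520.0 in GFP-only and 647, 1036 and 1574 in RFP-only libraries (log2 change -4.05 ± 0.46, adjusted p = 0.000177), and by Nid2, whose call was lost without any 1 of GFP-only litter 1, GFP-only litter 2, RFP-only litter 1 or RFP-only litter 2 (highest adjusted p 0.105). Eln, elastin, did not pass, at 1.38.

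Genes of the joint interzone, the layer where a joint forms, were called in both directions: 12 of 30 were higher, 9 lower and 9 did not pass, with a median of 0.16 (-0.06 without GFP-only litter 5 and 0.65 without GFP-only litter 2). Sfrp2, a secreted Wnt inhibitor, had 4929, 4117 and 3929 in GFP-only and 26381, 26895 and 30448 in RFP-only libraries (log2 change 2.69 ± 0.27, adjusted p = 8.54e-05). Cd44, the hyaluronan receptor, was at 329, 788 and 247 in GFP-only and 1936, 3475 and 4197 in RFP-only libraries (log2 change 2.92 ± 0.51, adjusted p = 0.00244). Chrd, the BMP antagonist chordin, stood at 165, 375 and 70.6 in GFP-only and 1217, 1668 and 1442 in RFP-only libraries (log2 change 3.12 ± 0.48, adjusted p = 0.0011). Gdf6, a GDF ligand of joints, had 13.2, 4.90 and 2.71 in GFP-only and 234, 101 and 301 in RFP-only libraries (log2 change 4.83 ± 0.69, adjusted p = 0.000698). On the lower side Wnt4, a Wnt ligand of the joint, was at 4009, 2423 and 6335 in GFP-only and 753, 981 and 615 in RFP-only libraries (log2 change -2.36 ± 0.37, adjusted p = 0.00133). Ccn2, a matricellular protein, stood at 27150.0, 26924 and 35747 in GFP-only and 4016, 2791 and 9514 in RFP-only libraries (log2 change -2.65 ± 0.57, adjusted p = 0.00738). The list thus held secreted proteins and receptors on both sides.

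Transcription factors of limb mesenchyme were called higher more often than lower: 20 of 52 were higher, 3 lower and 29 did not pass, with a median of 0.79. Tbx18, a T-box factor, had 732, 831 and 578 in GFP-only and 3558, 2958 and 3787 in RFP-only libraries (log2 change 2.27 ± 0.24, adjusted p = 0.000117). Tbx5, known as a forelimb factor, was called from low levels, at 29.8, 38.0 and 29.8 in GFP-only and 321, 320.5 and 192 in RFP-only libraries (log2 change 3.03 ± 0.35, adjusted p = 0.000195). Tbx4, the hindlimb counterpart, did not pass, at 0.71. Meis3, a partner of Hox proteins, was at 249, 453 and 209 in GFP-only and 1407, 1454 and 1424 in RFP-only libraries (log2 change 2.31 ± 0.32, adjusted p = 0.000632). Emx2, a homeobox factor of the limb girdle, stood at 96.7, 34.3 and 14.9 in GFP-only and 766, 787 and 697 in RFP-only libraries (log2 change 4.30 ± 0.62, adjusted p = 0.000759). Each was higher in all 3 litters. Of the 3 genes called lower, Hand1, a bHLH factor, had 128, 67.3 and 172 in GFP-only and 19.8, 2.26 and 0 in RFP-only libraries (log2 change -4.82 ± 1.01, adjusted p = 0.0066), and the others were Msx1 and Alx1. The lower count was 5 without GFP-only litter 2 and without double-positive litter 2.

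Of 31 tested Hox genes, which set position along the body and limb axes, 9 were higher, 1 lower and 21 did not pass, with a median of 0.74. The median was 0.46 without GFP-only litter 5, 0.43 without RFP-only litter 1 and 0.49 without RFP-only litter 2, and the higher count was 6 without RFP-only litter 1. The higher genes included the posterior members Hoxd10, Hoxd11, Hoxd12, Hoxc10 and Hoxc11. Hoxd11 was at 36.4, 68.6 and 59.7 in GFP-only and 341, 203 and 280.0 in RFP-only libraries (log2 change 2.32 ± 0.41, adjusted p = 0.00241). Hoxd12 stood at 0.827, 26.9 and 0 in GFP-only and 213, 228 and 183 in RFP-only libraries (log2 change 5.81 ± 1.04, adjusted p = 0.00279). Hoxb9, of the HoxB cluster, had 24.8, 12.2 and 32.6 in GFP-only and 217, 274 and 314 in RFP-only libraries (log2 change 3.56 ± 0.47, adjusted p = 0.000435). In all 3 genes every RFP-only library exceeded every GFP-only one. Several genes of the HoxA cluster with a role in the limb lay close to 0 without a call, such as Hoxa9 at 0.14, Hoxa10 at 0.31 and Hoxa11 at 0.39. Hoxa7, the gene called lower, lost its call without RFP-only litter 1 or RFP-only litter 5 (highest adjusted p 0.0952).

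Of 31 tested genes of the CREB, ATF and AP-1 family, to which Creb5 belongs, 4 were higher, 4 lower and 23 did not pass. The median was 0.12, and Creb5 itself is 1 of the 4 called higher by the sort. These counts are not far from the shares over all tested genes, 11.8% higher and 8.55% lower. Crem, an activator or repressor of cyclic AMP response genes, was at 298, 389 and 364 in GFP-only and 1309, 865 and 1323 in RFP-only libraries (log2 change 1.71 ± 0.26, adjusted p = 0.000969). Jund, a subunit of AP-1, stood at 10427, 6399 and 7932 in GFP-only and 18662, 13641 and 16608 in RFP-only libraries (log2 change 1.00 ± 0.22, adjusted p = 0.00801). Batf3, a bZIP partner of Jun proteins, had 944, 764 and 2727 in GFP-only and 245, 146 and 175 in RFP-only libraries (log2 change -2.76 ± 0.45, adjusted p = 0.00168). Jdp2, a repressor that dimerizes with Jun, was at 7902, 3020.3 and 6312 in GFP-only and 1252, 1452 and 1838 in RFP-only libraries (log2 change -1.83 ± 0.33, adjusted p = 0.00268). Neither Batf3 nor Jdp2 had an RFP-only library as high as any GFP-only one. The count of lower genes was 2 without any 1 of the RFP-only libraries. The median was -0.20 without GFP-only litter 2, -0.05 without RFP-only litter 5, 0.21 without GFP-only litter 5 and 0.33 without RFP-only litter 2. Creb1, the founding member, stood at 0.24, and Fos, Fosb and Junb were at -0.26, 0.12 and 0.13 without a call.

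Among signaling pathways the BMP list was called in both directions, with 9 of 36 higher, 11 lower and 16 that did not pass. Its lower count fell to 6 without RFP-only litter 1. Several ligands were on the lower side, while the ligand Gdf6, given with the joint interzone, had the largest rise of the list, at 4.83. Bmp5 had 2978, 2833 and 2156 in GFP-only and 759, 412 and 532 in RFP-only libraries (log2 change -2.26 ± 0.33, adjusted p = 0.000763), and Bmp6 was at 1490.4, 2802 and 1322 in GFP-only and 197, 288 and 371 in RFP-only libraries (log2 change -2.67 ± 0.40, adjusted p = 0.00099). Secreted antagonists were on both sides. Nbl1, a DAN-family antagonist, stood at 751, 1284 and 1081 in GFP-only and 6473, 8158 and 7888 in RFP-only libraries (log2 change 2.88 ± 0.32, adjusted p = 0.000146). Grem1, gremlin 1, had 193, 73.5 and 199 in GFP-only and 1109.8, 1136 and 929.6 in RFP-only libraries (log2 change 2.89 ± 0.36, adjusted p = 0.000331). Bmper, a BMP-binding protein, was at 5007, 4149 and 2439.5 in GFP-only and 1229, 742 and 1155 in RFP-only libraries (log2 change -1.86 ± 0.30, adjusted p = 0.00137). The receptors Bmpr1a, Bmpr1b and Bmpr2 and the targets Id1, Id2 and Id3 did not pass.

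TGF-beta and activin genes were higher in 8 of 26 cases and lower in 2, and the lower count was 0 without RFP-only litter 1 or RFP-only litter 5 and 1 without any 1 GFP-only library, RFP-only litter 2 or double-positive litter 1. Inhbb, an activin subunit, stood at 15.7, 33.1 and 27.1 in GFP-only and 427, 336 and 354 in RFP-only libraries (log2 change 3.88 ± 0.46, adjusted p = 0.000226). Tgfbr3, the co-receptor betaglycan, had 436, 506 and 376 in GFP-only and 2648, 2497 and 3525 in RFP-only libraries (log2 change 2.71 ± 0.33, adjusted p = 0.000258), and Tgfbr2, the type II receptor, was at 1729, 1872 and 658 in GFP-only and 4629, 4666 and 6394 in RFP-only libraries (log2 change 2.01 ± 0.36, adjusted p = 0.00268). Both receptors were higher in every litter. The ligands Tgfb2 and Tgfb3 did not pass, at 0.38 and 0.48. Genes of the IGF and PDGF pathways were higher in 11 of 21 cases and lower in 1, H19, whose call was lost without RFP-only litter 1 or RFP-only litter 5 (highest adjusted p 0.0962). Igf1, the growth factor, stood at 969.6, 2373 and 1699 in GFP-only and 14540.0, 14906 and 17549 in RFP-only libraries (log2 change 3.31 ± 0.42, adjusted p = 0.000338), and Igfbp2, which binds it, had 1587, 1436 and 1956 in GFP-only and 14459, 18725 and 16787 in RFP-only libraries (log2 change 3.33 ± 0.22, adjusted p = 6.47e-06). Pdgfd, a PDGF ligand, was at 206, 229 and 153 in GFP-only and 1261, 1248 and 1147 in RFP-only libraries (log2 change 2.65 ± 0.27, adjusted p = 8.50e-05). Igf2 and the receptor Igf1r did not pass.

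Of 13 Wnt ligands 4 were higher, 3 lower and 6 did not pass. The higher count was 1 without RFP-only litter 1 and 2 without any 1 of GFP-only litter 1, RFP-only litter 2, RFP-only litter 5 and the double-positive libraries. Wnt2 stood at 36.4, 109 and 54.3 in GFP-only and 1502, 1488 and 1330.0 in RFP-only libraries (log2 change 4.56 ± 0.58, adjusted p = 0.000375), the ligand with the largest rise. Wnt5b, a ligand made in cartilage, had 2268, 2915 and 2657 in GFP-only and 1252, 1197 and 1170.4 in RFP-only libraries (log2 change -1.11 ± 0.22, adjusted p = 0.00557). Of 47 receptors, modulators and targets 16 were higher, 6 lower and 25 did not pass. Fzd9, a Frizzled receptor, was at 8326, 5639 and 5757 in GFP-only and 74.7, 101 and 219.8 in RFP-only libraries (log2 change -5.76 ± 0.38, adjusted p = 6.47e-06), while Fzd4, another, stood at 710.1, 356 and 374 in GFP-only and 2783, 1948 and 5281 in RFP-only libraries (log2 change 2.74 ± 0.44, adjusted p = 0.0014). Dkk2, a secreted inhibitor of Wnt co-receptors, had 272, 1027 and 160.1 in GFP-only and 8201, 7913 and 6502 in RFP-only libraries (log2 change 4.40 ± 0.59, adjusted p = 0.000512). Rspo1, a secreted enhancer of Wnt signals, was at 5.79, 91.8 and 25.8 in GFP-only and 497, 1479 and 839 in RFP-only libraries (log2 change 5.05 ± 0.83, adjusted p = 0.00169). Frzb, an inhibitor made by cartilage, stood at 4586, 4624 and 4289 in GFP-only and 1179, 635 and 843 in RFP-only libraries (log2 change -2.39 ± 0.27, adjusted p = 0.000152), and Lef1, a nuclear effector, had 3587, 2498 and 2342 in GFP-only and 449, 512 and 493 in RFP-only libraries (log2 change -2.51 ± 0.29, adjusted p = 0.000204). The feedback target Axin2 did not pass, at 0.91.

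The FGF list was higher in 14 of 29 cases and lower in 3, and its higher count was 9 without RFP-only litter 5. Ligands and receptors differed in direction. Fgf10, a ligand of limb mesenchyme, was at 199, 192 and 42.1 in GFP-only and 2296, 2116 and 3074 in RFP-only libraries (log2 change 4.38 ± 0.58, adjusted p = 0.000471). Fgf18, a ligand of perichondrium, stood at 319, 735 and 205 in GFP-only and 1916, 2026 and 1406 in RFP-only libraries (log2 change 2.27 ± 0.47, adjusted p = 0.00619). Fgfr3, the receptor that restrains chondrocyte growth, had 32673, 18524 and 11554 in GFP-only and 525, 326 and 448 in RFP-only libraries (log2 change -5.49 ± 0.46, adjusted p = 2.25e-05), and Fgfr2 was at 10267, 7923 and 6442 in GFP-only and 1446, 1399 and 2296 in RFP-only libraries (log2 change -2.27 ± 0.33, adjusted p = 0.000861). Spry1, a feedback inhibitor, stood at 1138, 1043 and 449 in GFP-only and 6198, 5210.3 and 7132 in RFP-only libraries (log2 change 2.92 ± 0.32, adjusted p = 0.000138). All 3 genes called lower encode receptors of the family (Fgfr3, Fgfrl1 and Fgfr2), and Fgfr1 did not pass, at 0.40.

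In the hedgehog list 2 of 19 genes were higher and 4 lower, and the higher count was 5 without GFP-only litter 1. Over all tested genes 11.8% were higher and 8.55% lower, so the higher count is near its share. Ptch1, the receptor and a target of the pathway, had 5404, 4234 and 2757 in GFP-only and 913, 525 and 788 in RFP-only libraries (log2 change -2.46 ± 0.32, adjusted p = 0.000391). Cdon, a co-receptor, was at 404, 275 and 265 in GFP-only and 2417, 1961 and 2948 in RFP-only libraries (log2 change 2.96 ± 0.25, adjusted p = 2.29e-05). The effectors Gli1, Gli2 and Gli3 did not pass. Retinoic acid genes were higher in 6 of 18 cases and lower in 4, and the lower count was 2 without RFP-only litter 2. Aldh1a2, which makes retinoic acid, stood at 93.4, 350.1 and 73.3 in GFP-only and 2488, 1489 and 1834 in RFP-only libraries (log2 change 3.81 ± 0.57, adjusted p = 0.000958). Cyp26b1, which degrades it, had 1056, 442 and 406 in GFP-only and 177, 97.4 and 130.2 in RFP-only libraries (log2 change -2.12 ± 0.42, adjusted p = 0.00481). The enzymes of synthesis and degradation named here thus moved in opposite directions. Rarb, a receptor and target, was at 86.0, 178 and 99.0 in GFP-only and 826, 538 and 949 in RFP-only libraries (log2 change 2.70 ± 0.35, adjusted p = 0.000446). Notch genes were higher in 7 of 21 cases and lower in none, with 4 higher without RFP-only litter 2 or RFP-only litter 5. Notch3 stood at 297, 359.9 and 74.6 in GFP-only and 1430.5, 1522 and 1320.2 in RFP-only libraries (log2 change 2.82 ± 0.54, adjusted p = 0.00424), and its target Heyl had 187, 284 and 166 in GFP-only and 850.1, 1712 and 1680.0 in RFP-only libraries (log2 change 2.70 ± 0.37, adjusted p = 0.000607).

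Of 34 chemokines, cytokines and complement genes, among them factors that attract cells, 17 were higher, 2 lower and 15 did not pass, with a median of 1.72. Cxcl12, the chemokine of stromal cells, was at 1708, 1888 and 789.6 in GFP-only and 16954, 13124 and 12743 in RFP-only libraries (log2 change 3.37 ± 0.37, adjusted p = 0.000148). Ptn, the growth factor pleiotrophin, stood at 9372, 10254 and 10542 in GFP-only and 34529, 34147 and 40447 in RFP-only libraries (log2 change 1.85 ± 0.23, adjusted p = 0.00035). Serping1, the inhibitor of complement C1, had 186, 449 and 232 in GFP-only and 2097, 2572 and 2539.6 in RFP-only libraries (log2 change 3.15 ± 0.43, adjusted p = 0.000549). All 3 were higher in each RFP-only library. Mif, a cytokine, was at 22473, 20738 and 57001 in GFP-only and 9687, 12051 and 8963 in RFP-only libraries (log2 change -1.56 ± 0.35, adjusted p = 0.00901) with its highest value in GFP-only litter 5. Of 38 matrix proteases and inhibitors 17 were higher, 3 lower and 18 did not pass. Adamts5, an aggrecan-cleaving protease, stood at 90.9, 173 and 65.1 in GFP-only and 988, 1392 and 1269.8 in RFP-only libraries (log2 change 3.57 ± 0.53, adjusted p = 0.000948). Timp1, an inhibitor of metalloproteases, had 1995, 3668 and 9185 in GFP-only and 509.6, 934 and 596 in RFP-only libraries (log2 change -2.63 ± 0.47, adjusted p = 0.00264). Mmp2 and Mmp14 did not pass, at 0.54 and 0.56.

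Guidance and cadherin genes had more higher than lower calls. Of 49 axon guidance genes 18 were higher, 5 lower and 26 did not pass. Ntn1, netrin 1, was at 136, 269 and 55.6 in GFP-only and 2410.1, 2773 and 2650.2 in RFP-only libraries (log2 change 4.35 ± 0.51, adjusted p = 0.000203). Its receptors of the UNC5 family moved the other way, with Unc5c at 2916, 2662 and 2665 in GFP-only and 836, 434 and 274 in RFP-only libraries (log2 change -2.56 ± 0.36, adjusted p = 0.000603) and Unc5b at 837, 2159.6 and 1246 in GFP-only and 216, 356 and 297 in RFP-only libraries (log2 change -2.20 ± 0.44, adjusted p = 0.00482). The receptor Dcc, called from low levels, stood at 21.5, 46.5 and 10.9 in GFP-only and 155, 109.8 and 130.2 in RFP-only libraries (log2 change 2.49 ± 0.53, adjusted p = 0.00683). Of 19 cadherins 9 were higher and none lower. Cdh6 had 322, 230.2 and 322 in GFP-only and 1941, 1487 and 1361 in RFP-only libraries (log2 change 2.45 ± 0.25, adjusted p = 8.68e-05). Cdh11 and Cdh2, the cadherins of mesenchyme, did not pass, at 1.27 and 1.64. Integrins were called in 5 of 21 cases, 3 higher and 2 lower. This is near the share over all tested genes, 20.4%, with 11.8% higher and 8.55% lower. The lower count was 1 without GFP-only litter 1, GFP-only litter 2, RFP-only litter 1 or RFP-only litter 5. Itga10, the collagen receptor of chondrocytes, was at 555, 875 and 738 in GFP-only and 26.7, 28.3 and 7.0 in RFP-only libraries (log2 change -5.25 ± 0.67, adjusted p = 0.000377). Itga8, a receptor of mesenchyme, stood at 278, 211 and 198 in GFP-only and 1293, 1316 and 2093 in RFP-only libraries (log2 change 2.75 ± 0.27, adjusted p = 7.24e-05).

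**Figure D4:**
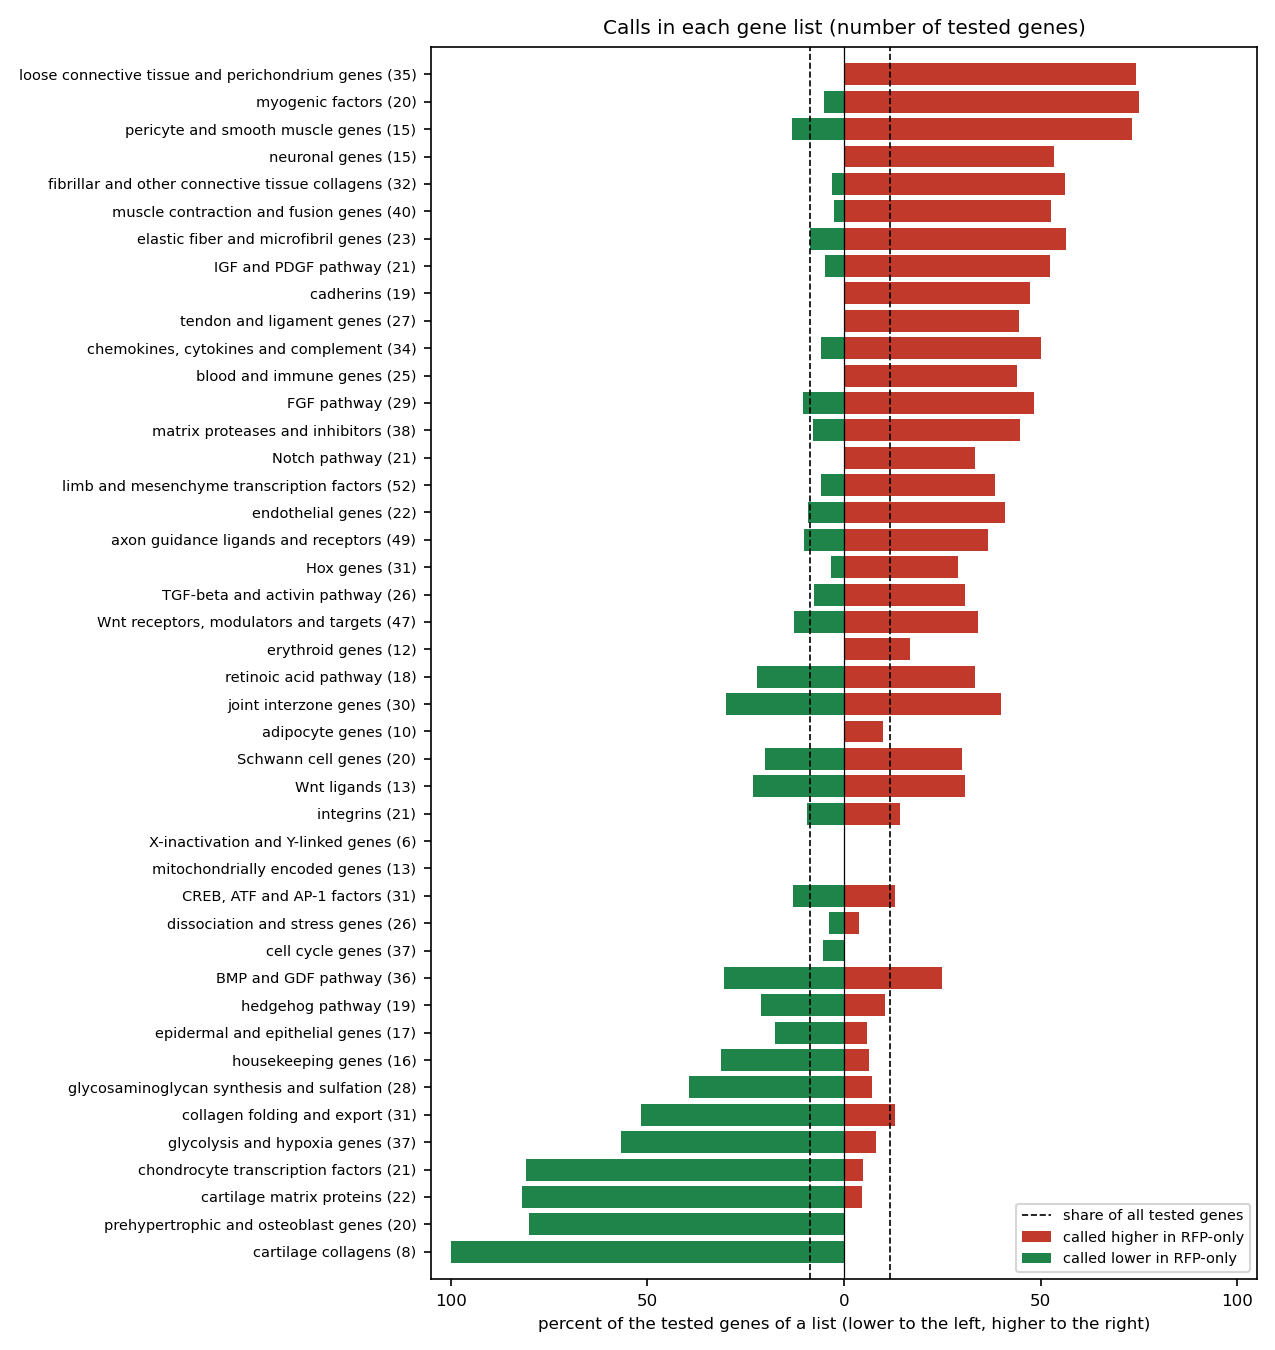
For each gene list, the percent of its tested genes called higher (red, to the right) or lower (green, to the left) in RFP-only cells, with dashed lines at the shares over all tested genes, 11.8% and 8.55%. The cartilage lists reach farthest to the left and myogenic factors (15 of 20), loose connective tissue genes (26 of 35) and pericyte and smooth muscle genes (11 of 15) farthest to the right.

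Markers of other cell types of the knee moved with the contrast, and their part in the results above was not tested. Many skeletal muscle genes were higher in RFP-only cells. Of 20 myogenic factors 15 were higher, 1 (Mef2c) was lower and 4 did not pass, with a median of 3.77. Their summed level was 19049 to 20428 in GFP-only and 15282 to 35796 in RFP-only libraries, with the lowest value in RFP-only litter 1, and this sum includes Mef2c, which is also a chondrocyte factor. Myod1, the muscle determination factor, had 38.9, 29.4 and 44.8 in GFP-only and 494, 2592 and 1744 in RFP-only libraries (log2 change 5.10 ± 0.71, adjusted p = 0.000632). Myog, which drives differentiation into muscle fibers, was at 180.2, 241 and 332 in GFP-only and 1470.1, 7813 and 6639 in RFP-only libraries (log2 change 4.12 ± 0.60, adjusted p = 0.000858). In both genes RFP-only litter 1 had the lowest RFP-only value, still above all GFP-only libraries. Of 40 genes of muscle contraction and fusion 21 were higher, 1 lower (Myl3) and 18 did not pass, the higher count was 13 without RFP-only litter 5, and the summed level was 11183 to 18456 in GFP-only and 35952 to 57135 in RFP-only libraries. Myl3 kept its call in 1 of the 9 fits that left out a library and was not called by edgeR's quasi-likelihood test (adjusted p = 0.0684). Actc1, the cardiac and embryonic muscle actin, stood at 236, 588 and 893 in GFP-only and 3648, 15582 and 11448 in RFP-only libraries (log2 change 4.12 ± 0.63, adjusted p = 0.00112). Myh3, embryonic myosin, had 10.7, 15.9 and 8.14 in GFP-only and 271, 388 and 406 in RFP-only libraries (log2 change 4.85 ± 0.68, adjusted p = 0.000624). Acta1, the actin of mature skeletal muscle, did not pass, at 0.79.

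Vascular genes were called as follows. Of 22 endothelial genes 9 were higher, 2 lower (Erg and Fli1) and 11 did not pass, and the summed level was 4868 to 6151.9 in GFP-only and 9159.1 to 12252 in RFP-only libraries. The higher count was 3 without RFP-only litter 1 and 4 without GFP-only litter 1, RFP-only litter 2 or RFP-only litter 5. The lower count was 1 without GFP-only litter 1, GFP-only litter 2, RFP-only litter 2 or RFP-only litter 5, where Fli1 lost its call. Tek, the angiopoietin receptor, was at 113, 84.5 and 9.50 in GFP-only and 1072, 1436 and 1798 in RFP-only libraries (log2 change 4.91 ± 0.78, adjusted p = 0.00139). Kdr, the main VEGF receptor, stood at 19.8, 231 and 47.5 in GFP-only and 860.0, 1111 and 1393 in RFP-only libraries (log2 change 4.16 ± 0.92, adjusted p = 0.00874). Pecam1, a defining endothelial gene, did not pass, at 115, 298 and 96.3 in GFP-only and 602, 488 and 346 in RFP-only libraries (log2 change 1.64 ± 0.63, adjusted p = 0.0879). Of 15 pericyte and smooth muscle genes 11 were higher and 2 lower, with a summed level of 16222 to 19731 in GFP-only and 16346 to 23350 in RFP-only libraries, ranges that overlap. Acta2, smooth muscle actin, had 259.6, 275 and 665 in GFP-only and 4264, 7532 and 6896 in RFP-only libraries (log2 change 4.06 ± 0.53, adjusted p = 0.000429). Rgs5, of pericytes, was at 8.27, 20.8 and 29.8 in GFP-only and 261, 465 and 496 in RFP-only libraries (log2 change 4.42 ± 0.49, adjusted p = 0.000144). The lower members were Cspg4, at 12104, 15047 and 13273 in GFP-only and 782, 1494 and 1129.8 in RFP-only libraries (log2 change -3.61 ± 0.33, adjusted p = 4.27e-05), and Ndufa4l2, a mitochondrial protein induced in hypoxia, at 579, 1123 and 2682 in GFP-only and 35.0, 114 and 133 in RFP-only libraries (log2 change -3.87 ± 0.60, adjusted p = 0.00112).

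Of 25 blood and immune genes 11 were higher, none was lower and 14 did not pass. Their summed level was 2206.2 to 3701.3 in GFP-only and 3945.1 to 9285.5 in RFP-only libraries, highest in RFP-only litter 1. Csf1r, the receptor that defines macrophages, stood at 1.65, 24.5 and 31.2 in GFP-only and 798, 277 and 339 in RFP-only libraries (log2 change 5.03 ± 0.93, adjusted p = 0.00336). C1qa, a complement gene of macrophages, had 4.13, 25.7 and 13.6 in GFP-only and 316, 180.1 and 109 in RFP-only libraries (log2 change 3.88 ± 0.70, adjusted p = 0.0029). The marker Ptprc, of all leukocytes, did not pass and was at 0 in GFP-only litter 1 (at 0, 18.4 and 13.6 in GFP-only and 109, 17.0 and 23.8 in RFP-only libraries). Red cell RNA was seen in all 6 libraries. Of 12 erythroid genes 2 were higher, the embryonic globins Hbb-y and Hba-x, and 10 did not pass, with a summed level of 7999.2 to 39787 in GFP-only and 43576 to 139198 in RFP-only libraries. The count of calls is not far from the shares over all tested genes, 11.8% higher and 8.55% lower. Hbb-y was at 716, 464 and 1117 in GFP-only and 12662, 25189 and 6714 in RFP-only libraries (log2 change 4.16 ± 0.48, adjusted p = 0.000194). The adult gene Hbb-bs stood at 1347, 9479.5 and 12071 in GFP-only and 6846, 27774 and 9429 in RFP-only libraries (log2 change 1.18 ± 0.95, adjusted p = 0.403). The ratio of Hbb-y to Hbb-bs was 0.531, 0.0489 and 0.0925 in GFP-only and 1.85, 0.907 and 0.712 in RFP-only libraries, without overlap. Globin genes are near-identical copies, so reads may be shared between them.

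Nerve genes were called in both directions. Of 15 neuronal genes 8 were higher, none lower and 7 did not pass, with a summed level of 1577.9 to 2098 in GFP-only and 6675.1 to 8198.3 in RFP-only libraries. Nefl, the light neurofilament, had 102, 103 and 89.5 in GFP-only and 3149.8, 3406 and 3794 in RFP-only libraries (log2 change 5.12 ± 0.33, adjusted p = 6.35e-06). Snap25, of the synaptic vesicle release machinery, was at 0, 2.45 and 5.43 in GFP-only and 292, 258 and 253 in RFP-only libraries (log2 change 6.58 ± 0.77, adjusted p = 0.000215). The markers Tubb3, Elavl4 and Stmn2 did not pass, at 1.93, 0.96 and -1.67. Of 20 Schwann cell genes 6 were higher, 4 lower and 10 did not pass, with a summed level of 26576 to 37371 in GFP-only and 21894 to 27345 in RFP-only libraries. Sox10, the factor that defines the lineage, stood at 1908, 1972 and 952 in GFP-only and 431, 388 and 325 in RFP-only libraries (log2 change -2.01 ± 0.34, adjusted p = 0.00182). Ngfr, the low-affinity neurotrophin receptor, had 86.0, 174 and 47.5 in GFP-only and 536, 616 and 638 in RFP-only libraries (log2 change 2.72 ± 0.52, adjusted p = 0.00401). S100b, which chondrocytes also make, was at 1738, 3366 and 8036 in GFP-only and 40.4, 121 and 104 in RFP-only libraries (log2 change -5.48 ± 0.61, adjusted p = 0.000152). Of 17 epidermal genes 3 were lower (Krt8, Perp and Cldn7), 1 was higher and 13 did not pass. Calls in either direction were near the share over all tested genes, 20.4%, with 11.8% higher and 8.55% lower. The summed level of the epidermal genes was 1988.8 to 4128.2 in GFP-only and 1360.8 to 1781.3 in RFP-only libraries, and the keratins Krt5 and Krt14 did not pass. The gene called higher, Epcam, was not called with litter as a replicate block (adjusted p = 0.0678).

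**Figure D5:**
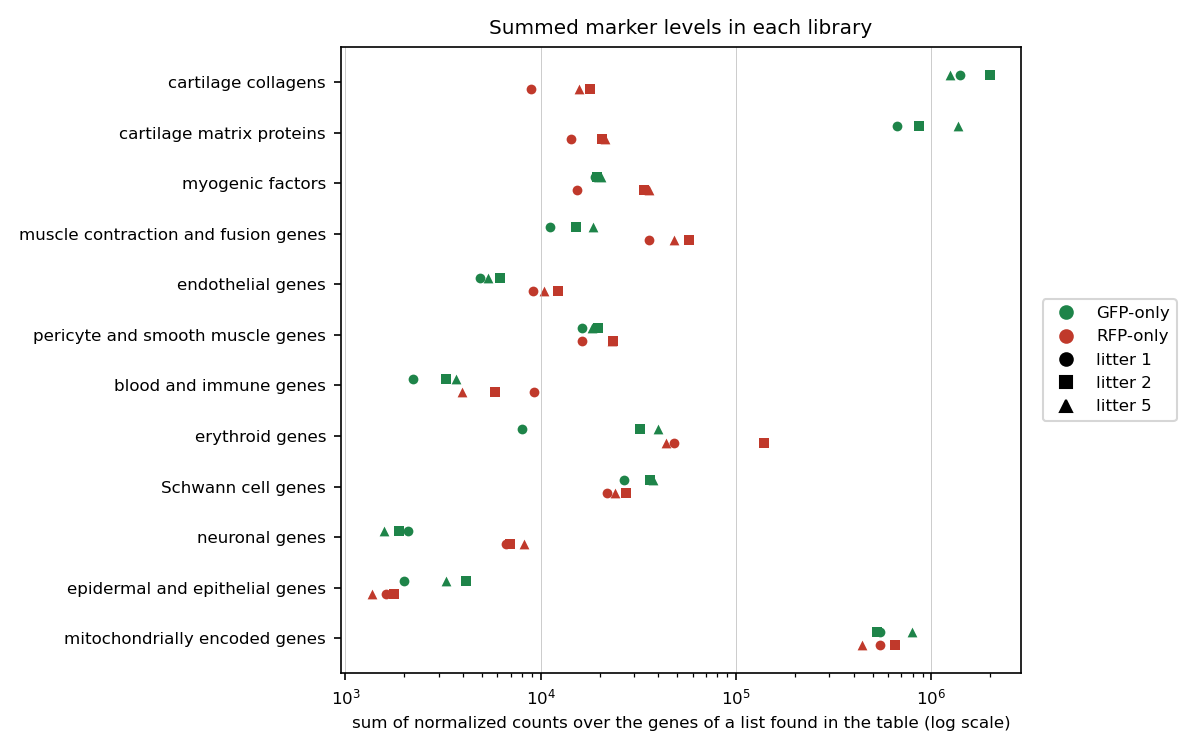
Summed normalized counts of each marker list in each library, on a log axis, coloured by population and shaped by litter. The cartilage lists are separated by more than 10-fold, the muscle contraction, endothelial, immune, erythroid and neuronal sums are higher in RFP-only cells without overlap, and the sums of the pericyte and mitochondrial lists overlap.

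Few cell cycle and stress genes were called. None of 37 cell cycle genes was called higher by limma, 2 were lower and 35 did not pass, with a median of 0.06 (-0.03 without GFP-only litter 2 and 0.13 without GFP-only litter 1) and changes from -2.77 to 1.03. Cdkn1a, an inhibitor of cyclin-dependent kinases, stood at 6885, 6754 and 18333 in GFP-only and 1108, 1289 and 1879 in RFP-only libraries (log2 change -2.77 ± 0.55, adjusted p = 0.00514). Cdkn1c, another inhibitor, was the second, and its call was lost without any 1 of GFP-only litter 5, RFP-only litter 1, RFP-only litter 2, RFP-only litter 5, double-positive litter 1, double-positive litter 2 or double-positive litter 5 (highest adjusted p 0.189). The proliferation genes Mki67, Top2a and Ccnb1 were at 0.50, 0.16 and 0.25 without a call. Of 26 genes of dissociation and stress 1 was higher, Socs3, a feedback inhibitor of cytokine signals, at 989, 1186 and 476 in GFP-only and 2621, 2696 and 3319 in RFP-only libraries (log2 change 1.80 ± 0.31, adjusted p = 0.0022). The lower one, Asns, lost its call without RFP-only litter 1 or RFP-only litter 2 (highest adjusted p 0.0634), while 4 were lower without GFP-only litter 2 and 3 without double-positive litter 2. None of the 13 mitochondrially encoded genes was called by limma or edgeR, 1 was higher under quantile normalization, and their changes ran from -2.66 to 0.31. They took 1.46% ± 0.135 (SD, n = 3) of GFP-only and 1.58% ± 0.307 (SD, n = 3) of RFP-only reads. Of 16 housekeeping genes 5 were lower, 1 higher and 10 did not pass, and the lower count was 2 without RFP-only litter 1 or RFP-only litter 5. Gusb, a lysosomal enzyme, had 4276, 5197 and 6546 in GFP-only and 2103, 2186 and 2467 in RFP-only libraries (log2 change -1.23 ± 0.20, adjusted p = 0.00169), and Actb, cytoplasmic actin, was at 0.08 without a call. Polr2a, the gene called higher, was not called with litter as a replicate block (adjusted p = 0.059).

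The genes that differed least are given for contrast. For 4445 genes without a call the 95% interval of the change lay within 2-fold, and for 9661 it reached beyond. Among genes with a mean of at least 1000 the narrowest intervals around a difference near 0 belonged to Golga7, Pja1, Cers2, Coro1b, Fndc4, Hnrnpdl, Ap2m1 and Aldh2. Cers2, a ceramide synthase, was at 7329, 6898 and 6812 in GFP-only and 6654, 6893 and 6912 in RFP-only libraries (log2 change -0.04 ± 0.16, adjusted p = 0.887). Pja1, a ubiquitin ligase, stood at 8434, 9031 and 8738 in GFP-only and 9389, 8534 and 8989 in RFP-only libraries (log2 change 0.04 ± 0.16, adjusted p = 0.892). Ap2m1, a subunit of the clathrin adaptor, had 17111, 19777 and 19684 in GFP-only and 17101, 16784 and 16504 in RFP-only libraries (log2 change -0.16 ± 0.17, adjusted p = 0.514). All 6 libraries lay close together in these genes, and the populations overlapped for Cers2 and Pja1. At the edge of the filter, BC049762 was inside with a mean of 10.002 and Hesx1 outside with 9.9991.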

How the data were processed

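Per the labels' protocols, knee cells of embryos were sorted by reporter and their polyadenylated RNA was made into bulk Nextera XT libraries. FastQC, STAR, Salmon, DESeq2 and the build mm10 are named in the submitters' processing notes, without versions or roles. No source used here gives the counted gene models or the strand setting, and overlapping and antisense genes cannot be told apart. The deposited values are a signal per gene, in counts that the authors divided by a factor for each library. All values (100%) were whole multiples, within 0.001 of a read, of the worth of 1 read in their library, which gave 25199258 to 47079305 reads in the 9 libraries, or rounded estimates of them. Gene names came from GENCODE M21 (assembly GRCm38, the same as mm10), which held 54495 of 54532 identifiers and lacked 37, and 23956 genes had no read. RefSeq held a promoter for 12056 of 17710 tested symbols.

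Groups follow the sorted population in the labels. limma 3.58.1 in R 4.3.3 was fitted with a mean-variance trend to log2(normalized count + 1) in all 9 libraries, which share 1 estimate of the spread. The added count of 1 understates changes of low genes. The two-sided test of RFP-only against GFP-only covered genes with a mean of at least 10, with Benjamini-Hochberg adjustment and calls under 0.05. The procedure was also run on simulated counts that had no litter effect and no trend with exon length. That run cannot show how the procedure behaves where these are present, and no conclusion is drawn from it. Counting intervals and bounds cover counting error only, and a bound sets 3 reads over the group without reads. Replicates differed beyond sampling noise, with a chi-square of at least 47.2 per degree of freedom.

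The labels give each litter number as a separate litter, so the numbers pair the libraries. Deviations from the population means correlated within litters with a median of 0.107 (-0.0435 to 0.155, 9 pairs) and between litters with a median of -0.0416 (18 pairs). For the 3 RFP-only and GFP-only pairs of litters 1, 2 and 5 the values were 0.107, 0.0236 and -0.0435. Alternatives changed the pseudocount, filter, scaling, libraries in the fit, block and trend, left out single libraries or litters, or used edgeR 4.0.16 and DESeq2 1.42.0 on recovered reads. A correction for exon length was added after the data were seen.

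Members and gene lists were chosen with earlier results of these data known. The lists share members, so the counts of different lists are not independent. Dlx5, for example, is a lower call of both the chondrocyte factor list and the prehypertrophic and osteoblast list. By rule the text draws on Creb5, Sox9 and Col2a1, the 12 largest changes and the 8 largest differences of means in each direction, up to 4 called members per list and direction, and the 8 narrowest differences near 0 (248 genes). Other genes named from the lists were chosen after their values were seen. Some of the genes that the rule draws on are not reported here.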

Additional observations from a re-analysis of the deposited data

How the results depend on the processing

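The total of 3616 calls lay between 3021 and 4686 under the alternatives that kept all RFP-only and GFP-only libraries and the same filter, other than fits of the 6 libraries alone. These 6 libraries gave 2858 calls, and 2421 with litter as a replicate block. With the block in the fit of 9 libraries 3685 genes were called, and of the 240 called genes chosen by rule 238 stayed called, with Epcam and Polr2a lost; the block changed no other of these calls. In the fit of 6 libraries 226 of them stayed called, and 218 with the block, which lost Nid2, Hoxa7, Batf, Fli1, Inhbe, Wnt11, Itga1, Slc2a3, Hprt and Gapdh and gained Cyp26a1 and Rarg. edgeR's quasi-likelihood test called 3188 genes and DESeq2 4686. Pseudocounts of 0.5 and 5 gave 3535 and 3759 calls, TMM scaling 3608, quantile normalization 3712, no filter 3213 of 30576 and a mean of at least 50 gave 3249 of 14077. After removal of each library's trend with exon length, an alternative chosen after seeing the data, 3901 genes were called. Genes called higher made up 58.1% of calls, against 52% in DESeq2, 53% with the length trend removed and 53.5% under quantile normalization. The median change over all tested genes, 0.04, was -0.03, -0.01 and -0.01 under quantile normalization, the length correction and DESeq2, and the joint interzone median of 0.16 was -0.03 in edgeR. Leaving out a library or a litter gave 1581 to 3730 calls, with the lowest of these without litter 1. No gene called both here and under an alternative changed direction. Of the 240 genes, 206 stayed called whichever of the 9 libraries was left out, and 177 whichever litter was left out. Reversals were counted among the genes chosen by rule and the list members. A change counted as reversed where its sign differed and the gene was called in the main fit or the alternative. Sign changes of genes without a call in both fits were not counted. The 1 reversed value was that of Tnc, a matrix glycoprotein. Tnc had no call at 0.03 and ranged from -0.84 without litter 5 to 0.53 without litter 2. The cause was not tested. With 3 libraries in each group, genes of low count have wide intervals, and a missing call is no sign of equality.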
